A study of Mus musculus with 4 samples.

Results

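The RNA of 10 genes of fat cells was followed in lung endothelial cells (ECs) after unilateral pneumonectomy (PNX), the removal of 1 lung, which is followed by growth of the remaining lobes. The genes were taken by symbol from a table of 24063 symbols: Ucp1, Adipoq, Pck1, Cidea, Cidec, Plin1, Plin4, Lep, Retn and Lipe. Each was represented by the transcript with the most counts over all libraries. Magnetic beads carrying anti-CD31 were used to pull ECs from the lungs of C57BL6 mice (C57BL6J in the study's methods), 8 weeks of age. The groups were sham-operated mice, whose chest was opened with no lung removed, and mice taken 7 days after PNX. There were 2 libraries per group, each from the pooled cells of 2 mice, so 4 libraries in all. The labels name no transgene or deleted allele in either group.

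Fat cells store triglyceride in a lipid droplet coated by perilipins and release fatty acids from it through lipases. White fat cells secrete hormones such as adiponectin and leptin. Brown and beige fat cells burn fatty acids, because the protein UCP1 lets protons leak across the inner mitochondrial membrane and the energy is released as heat. Genes of the droplet and of lipolysis are also used in other cells that handle lipid, whereas adiponectin, leptin and UCP1 are textbook markers of fat cells.

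The fat genes did not move as one group. The secreted hormone gene Adipoq, the thermogenic gene Ucp1, the glyceroneogenic enzyme gene Pck1 and the droplet coat gene Plin1 had between 1 and 7 counts in each sham library and rose after PNX in both libraries. Plin4 was about 1.49-fold higher, short of the 2-fold threshold. Cidec and Lipe, by far the most abundant of the 10 in either group, were slightly lower after PNX, Cidec not so when counts were scaled to endothelial markers. Cidea did not pass the test, and Lep and Retn stayed too low to be tested.

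Counts per library came to between 41367438 and 50952879 with 1 transcript per symbol, and 3 counts, taken as the floor, lay between 0.0589 and 0.0725 CPM (counts scaled to a common library total). These limits cover counting error only. In bulk RNA, fewer cells of a type and less RNA per cell cannot be told apart. The sorting marker Pecam1, which encodes CD31, was at 90946 ± 240 (SD, n = 2) normalized counts in sham and 90400 ± 294 (SD, n = 2) in post-PNX ECs. Cdh5, which encodes VE-cadherin, was at 110259 and 94599 in the same order, a log2 difference of -0.22, and Flt1 differed most of the endothelial markers, by -0.53. All 12 endothelial markers were detected, with a summed level of 508748 to 513931 normalized counts in sham and 434364 to 437096 in post-PNX libraries. Markers of alveolar type 2 epithelial cells were also abundant, with a summed level of 330885 to 331403 in sham and 213126 to 214586 in post-PNX libraries. Sftpc, one of them and named after its values were seen, was above Pecam1, at means of 171015 in sham and 111027 after PNX. A level given here for sham or post-PNX ECs is that of the whole CD31-selected preparation. Which cells held the RNA was not tested. The mice are described as male, but 0 of 44 chromosome Y genes had a count in any library and Xist had between 29890 and 36875 counts in each, so all 4 libraries go against that description and no result could be given without them.

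Normalized counts are counts scaled with edgeR's TMM factors to the mean library size. The groups were set against each other by edgeR's quasi-likelihood test on 16208 genes, with Benjamini-Hochberg adjustment over all of them. Calls required more than a 2-fold change in either direction (1 on the log2 scale) together with adjusted p below 0.01. Of all genes tested 7.56% were called, 5.90% higher and 1.66% lower after PNX (957 and 269 genes, or 1243 and 102 when counts were scaled to the 12 endothelial markers). Of the 10 fat genes 8 passed the filter on low counts, and of these 4 were called higher and 0 lower by edgeR, with the same counts by DESeq2. These 4 passed the filter only through their post-PNX libraries, and of the 183 genes tested that passed in this way 71.6% were called higher, so the count of called genes is not read further. Whatever the fold, 5 of the 8 tested were higher and 2 lower at an adjusted p below 0.01, beside 29.3% and 27.8% of all genes tested (57.1% together). The 5 include the 4 genes that passed the filter only through their post-PNX libraries, so this count is not read further either. The libraries of the groups did not overlap for 7 of the 8 tested, beside 81.2% of all genes tested. By the study's methods the libraries of a group are separate pools of mice, and the p-values rest on the spread between 2 such pools. That spread was little more than counting noise, with a mean chi-square per gene of 1.77 in sham and 1.53 after PNX. Between same-numbered sham and post-PNX libraries the mean was 134 and 119. Whether 2 pools show the full variation between mice was not tested.

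The start regions of the 4 genes called higher are shown because all 4 rose in the same comparison. Each run gives 250 bases before and 50 bases after the RefSeq start site, 5′ to 3′ on the strand of the gene, in GRCm38.p6, the assembly that mm10 is. Capitals mark the motifs AGGTCA, to which nuclear receptors bind, and TTGCNNAA, which fits C/EBP factors.
Adipoq, chr16:23146286-23146585, plus strand: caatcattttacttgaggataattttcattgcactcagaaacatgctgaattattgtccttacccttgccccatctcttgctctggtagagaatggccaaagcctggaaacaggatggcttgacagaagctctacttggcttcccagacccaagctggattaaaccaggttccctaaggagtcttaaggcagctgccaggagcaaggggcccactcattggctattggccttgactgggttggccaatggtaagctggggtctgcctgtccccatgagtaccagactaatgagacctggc
Ucp1, chr8:83290098-83290397, plus strand: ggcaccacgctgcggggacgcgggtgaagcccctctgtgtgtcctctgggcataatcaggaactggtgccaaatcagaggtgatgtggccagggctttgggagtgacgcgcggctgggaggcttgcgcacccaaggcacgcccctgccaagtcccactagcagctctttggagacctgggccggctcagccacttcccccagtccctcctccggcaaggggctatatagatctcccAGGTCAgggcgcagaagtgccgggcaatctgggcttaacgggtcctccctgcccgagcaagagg
Pck1, chr2:173152823-173153122, plus strand: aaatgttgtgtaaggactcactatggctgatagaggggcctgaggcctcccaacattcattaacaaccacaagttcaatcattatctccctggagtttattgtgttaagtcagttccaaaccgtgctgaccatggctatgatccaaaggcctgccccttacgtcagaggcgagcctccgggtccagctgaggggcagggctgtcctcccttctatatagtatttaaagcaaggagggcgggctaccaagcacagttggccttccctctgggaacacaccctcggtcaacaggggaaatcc
Plin1, chr7:79732727-79733026, minus strand: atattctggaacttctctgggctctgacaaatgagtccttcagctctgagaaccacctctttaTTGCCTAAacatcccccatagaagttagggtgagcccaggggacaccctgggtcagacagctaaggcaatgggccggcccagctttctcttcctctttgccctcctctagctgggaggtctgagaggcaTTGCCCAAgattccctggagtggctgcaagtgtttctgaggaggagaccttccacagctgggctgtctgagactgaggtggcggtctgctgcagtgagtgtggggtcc

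The motifs were searched on both strands. AGGTCA lay in the Ucp1 window, with its first base at -14 from the start site, and TTGCNNAA lay at -187 and -58 in the Plin1 window. The Plin1 gene reaches 79732904, inside the printed window, so the start site used there lies downstream of the gene's outer end. The Adipoq and Pck1 windows held neither motif. None of the 4 windows held the direct repeat 1 motif (AGGTCA, any base, AGGTCA), which fits PPAR factors and overlaps the single AGGTCA. None held the cAMP element TGACGTCA or the letters TATAAA. Only these exact letters were searched, so near spellings, such as TTACGTCA in the Pck1 window, were not counted. Of all 32851 such windows 16.3% held AGGTCA, 10.8% TTGCNNAA, 0.0396% the direct repeat, 1.79% TGACGTCA and 13.6% TATAAA. A match describes the letters only.

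**Figure D1:**
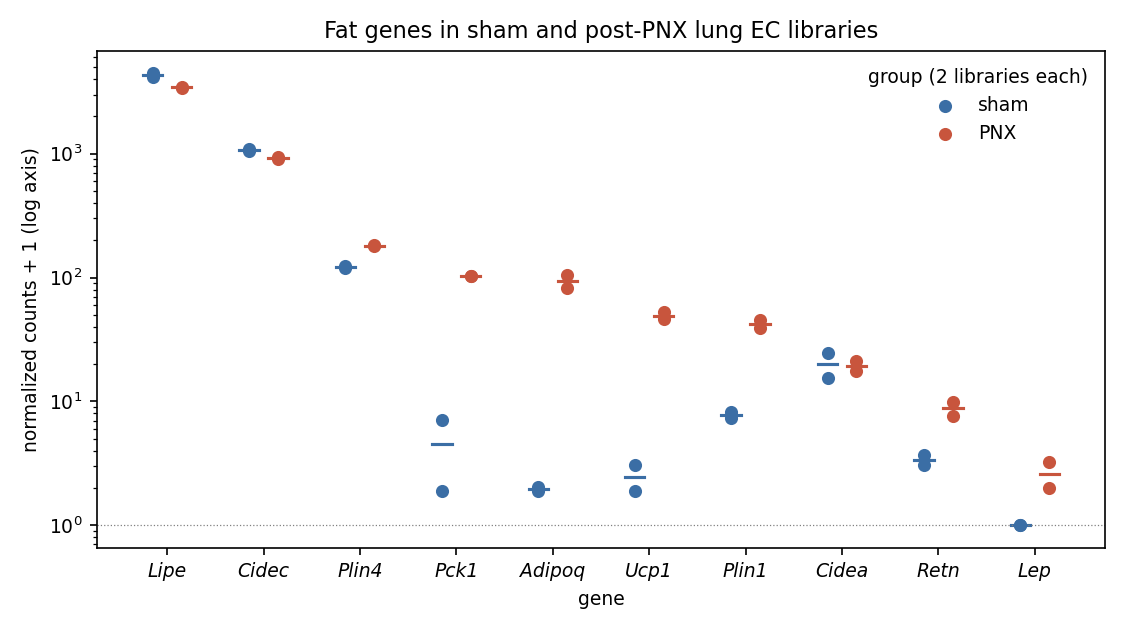
Normalized counts plus 1 (log axis) of the 10 fat genes in each of the 2 sham and 2 post-PNX libraries, with a bar at each group mean and a dotted line at 0 counts. Pck1, Adipoq, Ucp1 and Plin1 lie between 37.9 and 103.6 normalized counts after PNX and below 8 in sham, whereas Lipe and Cidec are high in both groups.

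Among the hormones, Adipoq encodes adiponectin, secreted by mature fat cells. The gene lies on chromosome 16 from 23146536 to 23157968. Its counts were 1 and 1 in sham ECs against 83 and 93 in post-PNX ECs, or 81.6 and 103.6 normalized counts after PNX. The groups were far apart, and both sham libraries were at the floor. The post-PNX mean of Adipoq was 32.1 times the floor of 3 counts per sham library. The ratio of the counts seen, 176 to 2 over the libraries of each group, was 95.8 after scaling, with an exact 95% interval from 26.1 to 797 for counting error. The edgeR test gave an adjusted p of 4.2e-20 for Adipoq.

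Lep encodes leptin, the hormone by which white fat cells signal their lipid stores. It had 0 and 0 counts in sham and 1 and 2 counts in post-PNX libraries, on chromosome 6 from 29060221 to 29073876. Both groups were at or below the floor, so no fold is given and a level of up to 3 counts per library cannot be told from 0. Leptin RNA was thus not detectable in sham ECs at this depth.

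Retn encodes resistin, which in mice is made by white fat cells, and lies on chromosome 8 from 3655770 to 3659818. It had 3 and 2 counts in sham and 9 and 6 in post-PNX libraries. Sham was at the floor, and the post-PNX mean was 2.69 times 3 counts per sham library. The ratio of the counts seen, 15 to 5 over the libraries of each group, was 3.27 after scaling, with an exact 95% interval from 1.13 to 11.5 for counting error. Retn did not pass the filter on low counts, and without the filter its adjusted p was 0.0857 in edgeR's test. Its paralog Retnla was far more abundant, and how reads shared by such relatives were counted is not given in the sources used here, so the Retn value is uncertain.

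**Figure D2:**
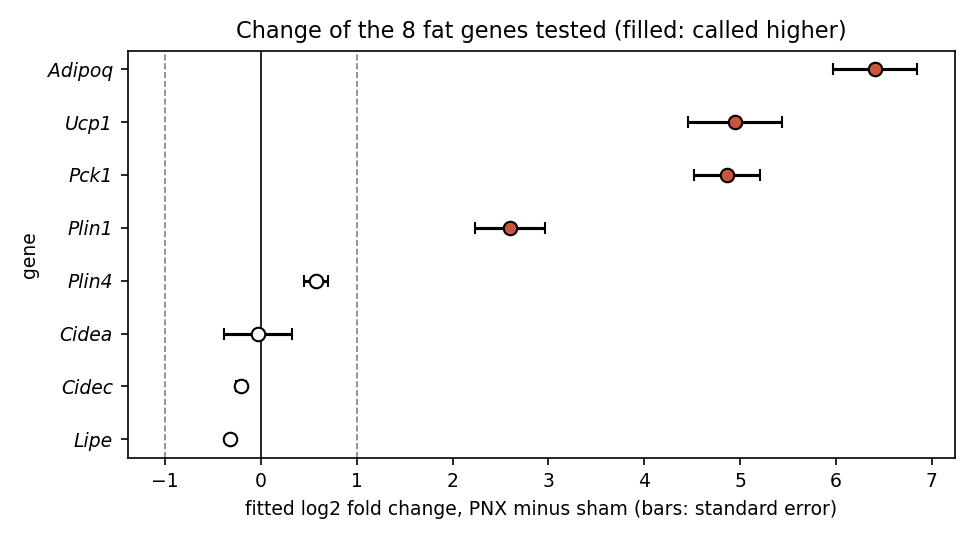
Fitted log2 fold change (PNX minus sham) of the 8 fat genes tested, with standard errors as bars, dashed lines at -1 and 1, and filled points for genes called higher. Adipoq, Ucp1, Pck1 and Plin1 lie beyond 1 while Plin4, Cidea, Cidec and Lipe lie between the dashed lines, and the fitted values of Adipoq and Ucp1 rest on sham counts at the floor and are no sizes.

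Of the droplet coat, Plin1 encodes perilipin 1, which covers the large droplet of fat cells and controls access of lipases to it. It lies on chromosome 7 from 79721164 to 79732904. Plin1 had 6.34 and 7.14 normalized counts in sham and 44.2 and 37.9 in post-PNX libraries. The groups did not overlap, and the level of Plin1 was 6.09-fold higher after PNX. The log2 fold change of Plin1 was 2.60 (standard error 0.364, adjusted p = 6.5e-09 from the edgeR test).

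Plin4, another perilipin, found on small nascent droplets in fat cells, had 118.7 and 122.3 normalized counts in sham and 178.8 and 180.5 in post-PNX libraries. Both post-PNX libraries were above both sham libraries, which was so for 40.8% of all genes tested. The log2 fold change of Plin4 was 0.58 (standard error 0.127, adjusted p = 6.6e-05 from the edgeR test), below the fold threshold, and by DESeq2 its adjusted p was 0.0108. The Plin4 gene, on chromosome 17 from 56100587 to 56109948, overlaps Hdgfl2, which had 3098 to 3666 counts per library, and how strand entered the counting is not given in the sources used here.

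The CIDE proteins make droplets fuse into larger ones. Cidec, also known as Fsp27, had 1087 and 1044 normalized counts in sham and 932.5 and 911.4 in post-PNX libraries. Each post-PNX value lay under each sham value, as for 40.5% of all genes tested. The log2 fold change of Cidec was -0.21 (standard error 0.051, adjusted p = 0.00029 from the edgeR test), and it was 0.0071 when counts were scaled to the 12 endothelial markers, a scaling that raised the median of all genes by 0.22. The adjusted p of Cidec was 0.0198 by DESeq2 and 0.0124 by edgeR without the first sham library, so its place under 0.01 depended on the tool and on 1 library. Cidec overlaps Gm52871, which was not analysed here.

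Cidea, a CIDE protein gene of brown and beige fat, had 14.5 and 23.4 normalized counts in sham and 16.7 and 20.1 in post-PNX libraries. Both post-PNX libraries lay between the sham libraries. The log2 fold change of Cidea was -0.03 (standard error 0.355, adjusted p = 0.941 from the edgeR test). Its sign turned with the library left out, from -0.36 without the first sham library to 0.33 without the second. Cidea overlaps B430212C06Rik, which had 6 to 13 counts per library, so reads of the 2 genes may not be told apart.

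Lipe encodes hormone-sensitive lipase, which cuts diglyceride when fat is mobilised. It had 4181 and 4451 normalized counts in sham and 3463 and 3417 in post-PNX libraries. The groups did not overlap, and the level of Lipe after PNX was 0.797 of that in sham. The log2 fold change of Lipe was -0.33 (standard error 0.030, adjusted p = 1.1e-14 from the edgeR test), and -0.11 under scaling to the endothelial markers. Lipe, on chromosome 7 from 25379527 to 25398486, overlaps 4732471J01Rik, which had 1040 to 1555 counts per library.

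Ucp1 encodes the uncoupling protein of brown and beige fat and lies on chromosome 8 from 83290348 to 83298456. It had 1 and 2 counts in sham and 46 and 46 in post-PNX libraries, or 45.2 and 51.3 normalized counts after PNX. Sham was at the floor, and the post-PNX mean of Ucp1 was 16.7 times 3 counts per sham library. The ratio of the counts seen, 92 to 3 over the libraries of each group, was 33.4 after scaling, with an exact 95% interval from 11.1 to 165 for counting error. The adjusted p of Ucp1 was 1.0e-13 from the edgeR test.

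Pck1 encodes cytosolic PEPCK, which supplies glycerol for triglyceride in fat cells and is better known for glucose production in liver and kidney. It lies on chromosome 2 from 173153073 to 173159274. Pck1 had 1 and 6 counts in sham and 103 and 91 in post-PNX libraries, or 101.2 and 101.4 normalized counts after PNX. The post-PNX libraries were alike and the sham libraries differed. The log2 fold change of Pck1 was 4.86 (standard error 0.345, adjusted p = 2.0e-19 from the edgeR test). Its size rests on the sham library with 6 counts, since it was 6.62 without that library and 4.02 without the other sham library.

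The rise of these genes was seen in both post-PNX pools. The first post-PNX library held 53.1% of all counts of the 2 libraries. Its share was 47.2% of the 176 Adipoq counts (exact 95% binomial interval 39.6% to 54.8%), 46 of the 92 Ucp1 counts (39.4% to 60.6%), 53.1% of the 194 Pck1 counts (45.8% to 60.3%) and 57.0% of the 79 Plin1 counts (45.3% to 68.1%). The intervals of these 4 genes held the share over all counts, and they cover counting error only.

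To set the genes beside each other per length, the FPKM that the authors deposited was used, which divides counts by transcript length and by a total over all transcripts. In sham ECs Lipe was at 18.2 ± 0.811 FPKM (SD, n = 2) and Cidec at 8.41 ± 0.239 FPKM (SD, n = 2). Plin4 followed at 0.284 and Cidea at 0.221 FPKM, and the rest were at 0.0555 or less. Together Lipe and Cidec made up 97.4% to 97.8% of the FPKM of the 10 genes in sham libraries and 87.1% to 88.2% in post-PNX libraries.

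After PNX the order below these was Adipoq, Pck1, Plin4, Ucp1, Plin1, Cidea, Retn and Lep. Adipoq was at 1.03 ± 0.171 FPKM (SD, n = 2) and Ucp1 at 0.401 ± 0.035 FPKM (SD, n = 2). In sham the libraries of Pck1, Ucp1 and Adipoq overlapped in FPKM, on 1 to 6 counts each, so they have no order there. Plin4 and Ucp1 overlapped between libraries in post-PNX ECs, as did Cidea and Retn, so their order is not settled. Retn has another transcript with the same counts and a lower FPKM. Adipoq, the highest of the genes that rose, stayed below Cidec at 7.32 FPKM and Lipe at 14.6 FPKM.

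Of all symbols, 390 were at the floor in both sham libraries and above it in a post-PNX library. Ranked by the fold of the post-PNX mean over 3 counts per sham library, Adipoq was 2nd, Ucp1 8th and Retn 60th. The 5 highest were Rnase2a (239 times the floor), an eosinophil-associated ribonuclease gene with close paralogs, Adipoq, the carbonic anhydrase gene Car6 (31.1), the secretory granule gene Chga (26.8) and the protease gene Adamts16 (26.1). Dlk1, which encodes the preadipocyte factor Pref-1, was 7th with 16.8 times the floor, next to Ucp1. The order shifts with the floor, as Adipoq was 9th and Ucp1 27th when up to 10 counts in each sham library were allowed.

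**Figure D3:**
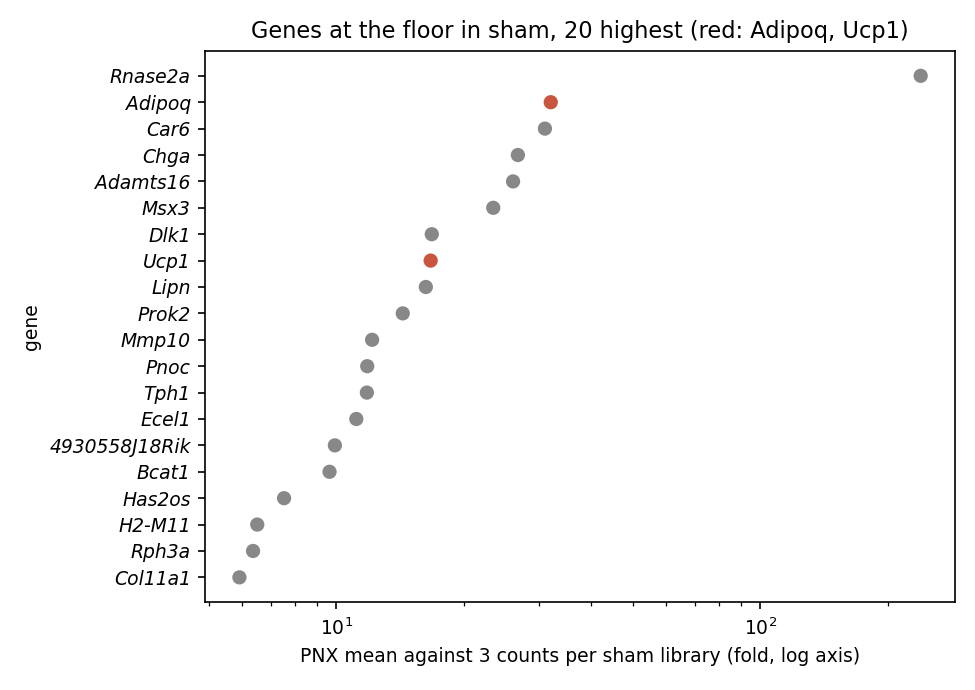
The 20 genes at the floor in sham with the highest fold of the post-PNX mean over 3 counts per sham library (log axis), with Adipoq and Ucp1 in red. Adipoq is 2nd at 32.1 and Ucp1 8th at 16.7, and Rnase2a stands apart at 239.

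Beyond the 10 genes, 105 other genes of fat biology were taken in 8 lists by role, and 97 were tested. After PNX 13 of them (13.4%) were called higher, against 5.90% of all genes, and 3 (3.09%) lower, against 1.66%. Of the 13, 5 passed the filter only through the post-PNX libraries. Since 71.6% of all genes that passed in this way were called higher, the count is not read further. The median log2 fold change over the 97 was 0.00, like that of all genes tested (0.00).

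Of the mature adipocyte genes 5 of 12 tested were called higher and 1 lower, with a median of 0.75. Of these 5, Cfd, Mrap and Orm1 passed the filter only through the post-PNX libraries, so the count and the median are not read further. Cfd, which encodes adipsin, a complement protease secreted by fat cells, had 8.15 and 7.14 normalized counts in sham and 406 and 449 in post-PNX libraries. Car3, the carbonic anhydrase of fat and slow muscle, had 19.0 and 12.2 in sham and 551 and 547 in post-PNX libraries. Their log2 fold changes were 5.77 for Cfd (standard error 0.189, adjusted p = 6.5e-36) and 5.11 for Car3 (standard error 0.151, adjusted p = 3.3e-38, both from the edgeR test).

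Mrap, an accessory protein of melanocortin receptors in adrenal and fat cells, rose by 2.30 on the log2 scale (edgeR adjusted p = 2.8e-07). The other genes called higher, named after their values were seen, were Aoc3 (1.19) and Orm1 (2.13). Npr3, the clearance receptor for natriuretic peptides, had 26406 ± 266 (SD, n = 2) normalized counts in sham and 8315 ± 112 (SD, n = 2) after PNX, and fell by 1.67 on the log2 scale (edgeR adjusted p = 5.3e-59). Slc7a10, a serine transporter marking white fat cells, had 1828 and 1838 normalized counts in sham and 1884 and 1762 after PNX, and the groups overlapped.

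Of the 15 adipokines and hormone receptors tested, Retnla alone was called. It encodes RELM alpha, a relative of resistin made by alternatively activated macrophages, with 685 ± 67.3 (SD, n = 2) normalized counts in sham and 3317 ± 104 (SD, n = 2) after PNX. Retnla rose by 2.28 on the log2 scale (edgeR adjusted p = 7.7e-48). The adiponectin receptor genes Adipor1 and Adipor2 were high in both groups, with log2 differences of -0.03 and -0.13. Of 11 lipid droplet and lipolysis genes 0 were called by edgeR, with 6 of them at an adjusted p under 0.01. Over all genes tested 7.56% were called and 57.1% had such an adjusted p. Plin2, the perilipin of cells outside fat, was at 0.26 on the log2 scale and the monoglyceride lipase Mgll at -0.36.

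Among 13 thermogenic genes tested 3 (23.1%) were called higher and 1 (7.69%) lower, beside 5.90% and 1.66% of all genes tested. Ebf2, a transcription factor of brown fat precursors, had 9.97 and 4.08 normalized counts in sham and 42.2 and 33.4 after PNX. Tmem26, a marker of beige fat cells, had 123.2 and 129.5 in sham and 359.6 and 351 after PNX. Dio2, which activates thyroid hormone, had 15.4 and 18.3 in sham and 40.3 and 49.0 after PNX. In all 3 both post-PNX libraries were above both sham libraries, as for 40.8% of all genes tested, with log2 fold changes of 2.39, 1.49 and 1.40. Ebf2 passed the filter only through its post-PNX libraries, so its call is a description. Ppargc1a, the coactivator of mitochondrial genes, fell by 1.16 on the log2 scale (adjusted p = 1.9e-09 from edgeR), named after its value was seen. The gene for the brown fat factor Zic1 had 0 counts in every library, and Ucp2, a widely used relative of Ucp1, was at 25087 and 25003 mean normalized counts in sham and post-PNX ECs. Ckb, a creatine kinase used in thermogenesis, was at 0.56 on the log2 scale.

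Of 11 adipogenic transcription factors Mlxipl, the sugar-sensing factor ChREBP, was called higher (log2 fold change 1.80, adjusted p = 4.7e-19) and Klf15 lower (-1.38, adjusted p = 1.7e-28, both from edgeR). Pparg and Cebpa, the central factors of fat cell formation and named after their values were seen, were detected in all libraries and stood at -0.29 and -0.20 on the log2 scale. The most abundant of the list, Cebpd and Rxra, stood at -0.67 and -0.08. Of 18 lipogenesis and glyceroneogenesis genes 0 were called by edgeR, with 10 at an adjusted p under 0.01. The shares over all genes tested were 7.56% and 57.1%. The fatty acid desaturases Scd1 and Scd2 were at -0.52 and -0.06.

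Of 9 uptake genes the fatty acid binding protein genes Fabp4 and Fabp5, which ECs use as well as fat cells, rose with log2 fold changes of 1.19 and 1.06. Lrp1, a lipoprotein receptor, was at 0.31. Cd36, the fatty acid translocase, was at -0.59 with 137522 and 91271 mean normalized counts in sham and post-PNX ECs. Of 8 fat cell progenitor genes Dlk1 was called higher and the rest were not, with Cd34 at 0.71 and Ly6a at -0.09. Dlk1 had 1 and 3 counts in sham and 50 and 43 in post-PNX libraries, and passed the filter only through the latter.

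**Figure D4:**
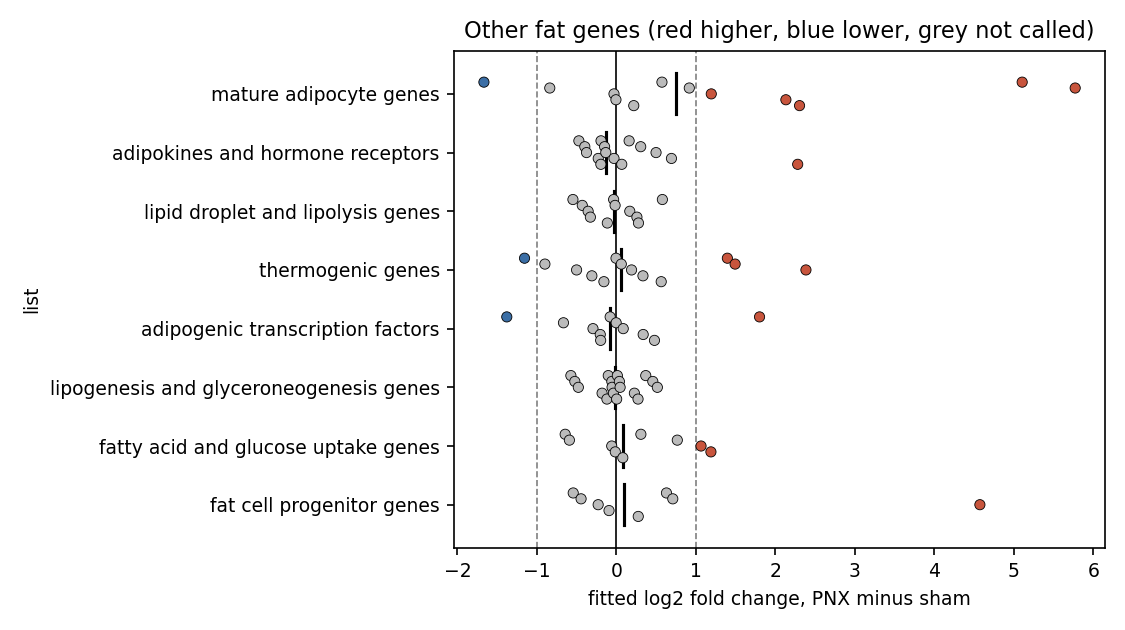
Fitted log2 fold change (PNX minus sham) of each tested gene in the 8 lists of other fat genes, with red for called higher, blue for called lower, grey for not called, black bars at list medians and dashed lines at -1 and 1. Cfd at 5.77 and Car3 at 5.11 lie far to the right in the mature adipocyte list, while most lipogenesis and lipolysis genes lie between the dashed lines.

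Markers of other cells also differed between the groups in these libraries. Their counts stand beside 5.90% of all genes tested called higher, 1.66% called lower and 57.1% at an adjusted p under 0.01 in edgeR's test. The summed level of 7 fibroblast markers was 61429 and 62019 normalized counts in sham and 223349 and 224945 in post-PNX libraries. Of these 5 of 7 were called higher, with Lum at 4.26 on the log2 scale. Those not called, named after their values were seen, were Pdgfra, also in the progenitor list, at -0.23 and Tcf21 at 0.02. The sum was largely collagen RNA. Col1a1, Col1a2 and Col3a1, named after their values were seen, were at means of 45932, 59343 and 88244 after PNX. The summed level of 7 mesothelial markers was 14045 and 14036 in sham and 26997 and 27338 after PNX, with 4 of 7 called higher and Wt1 at 2.68. That of 7 macrophage markers was 22337 and 22004 in sham and 51714 and 51915 after PNX, with 4 of 7 called higher and C1qb at 2.98.

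The 5 pan-leukocyte markers summed to 36033 and 36077 in sham and 37089 and 37588 after PNX, with 0 called by edgeR and 3 at an adjusted p under 0.01, Cd52 the largest at 0.26. Striated muscle markers were low, at 590 and 615 in sham and 466 and 497 after PNX, with Tnnt2 at 1.01 on the log2 scale the only one of 7 tested called higher. Of the liver markers Fgb and Apoc3 were at 0 counts in every library, and the 6 together were at 24.5 and 21.4 in sham and 30.5 and 15.6 after PNX. Alveolar type 2 markers stood at -0.71 (Sftpa1) to -0.37 on the log2 scale, with 0 of 7 called and 7 of 7 at an adjusted p under 0.01.

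Of the mature adipocyte markers, which include Adipoq, Plin1, Cidec, Lep and Retn, 4 of 7 tested were called higher. Of these 4, Adipoq, Plin1 and Cfd passed the filter only through the post-PNX libraries, so their count is a description. All 10 genes of the list summed to 3101 and 3031 in sham and 3997 and 3896 after PNX. Most of this was Slc7a10 and Cidec, with means of 1833 and 1065 in sham and 1823 and 922 after PNX. The mean of Cfd went from 7.64 to 427 and that of Car3 from 15.6 to 549. At an adjusted p under 0.01 whatever the fold, 2 of the 7 were lower in edgeR's test, Cidec and Thrsp. Thrsp, a lipogenic gene named after its values were seen, had 144.9 and 113.2 normalized counts in sham and 76.6 and 68.0 after PNX, a log2 difference of -0.84. Of the brown or beige markers, which include Ucp1 and Cidea, 2 of 5 tested were called higher, Ucp1 and Dio2. Ucp1 passed the filter only through its post-PNX libraries. The 8 genes of this list summed to 106 and 114 in sham and 185 and 194 after PNX. The mean of Ucp1 went from 1.47 to 48.2 and that of Dio2 from 16.9 to 44.7. Cidea, Cox7a1 and Cox8b (the last 2 named after their values were seen) were not called, at -0.03, 0.19 and -0.16 on the log2 scale. Leptin, Zic1 and Elovl3, which also belong to these lists, had between 0 and 2 counts per library, Elovl3 being named after its values were seen. The part of fibroblast, mesothelial and macrophage RNA in the rise of Adipoq, Ucp1, Pck1 and Plin1 was not tested.

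**Figure D5:**
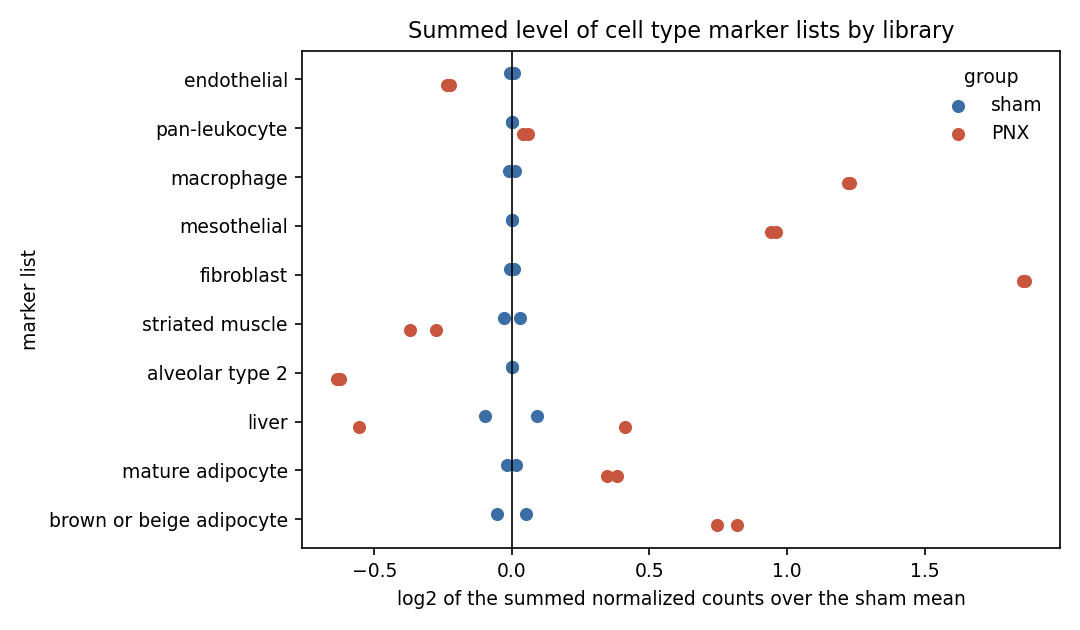
Log2 of the summed normalized counts of each cell type marker list in each library, relative to the mean of the 2 sham libraries. Fibroblast, macrophage, mesothelial, brown or beige adipocyte and mature adipocyte lists are higher in both post-PNX libraries, and the pan-leukocyte list is slightly higher. The endothelial, alveolar type 2 and striated muscle lists are lower, and the liver list scatters on fewer than 31 counts.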

How the data were processed

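RNA of 2 sham and 2 post-PNX pools of CD31-selected lung ECs was sequenced from a stranded mRNA kit. The authors aligned reads to mm10 (STAR, per the submitters' processing notes) and deposited counts on 33068 RefSeq transcripts, with FPKM and TPM. The counting program and strand setting are not given in the sources used here. The deposited FPKM was used to compare levels between genes, and the deposited TPM was not used. Transcripts of 1 symbol often carry equal counts (Cidec, Plin1 and Retn), so 1 transcript per symbol was kept.

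The tests used edgeR 4.0.16 in R 4.3.3 (filterByExpr, TMM, quasi-likelihood test, Benjamini-Hochberg adjustment). The standard error is the log2 fold change divided by the square root of F. DESeq2 1.42.0 was an alternative. The thresholds follow the study's methods. Genes with at most 3 counts in each sham library were set against 3 counts. On simulated counts of the PNX against sham comparison over 16208 genes, edgeR recovered 100 of 102 genes changed 4-fold and 98 of 98 changed 8-fold, with 0 false calls. Low-count genes were not among those changed, and the simulated spread was taken from these libraries. The simulation thus does not cover genes at the floor in sham or a wider variation between mice. Replicate libraries differed slightly beyond counting noise, with a mean chi-square per gene of 1.77 in sham and 1.53 after PNX.

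The 10 genes, the lists and the tests were chosen with earlier results of these data known. Named genes are the 10, the sorting markers Pecam1 and Cdh5, the 3 largest called changes (mean of at least 10 normalized counts) and 2 highest levels of each list, the 5 highest floor genes, and the largest change of each marker list, with others said to be named after their values were seen. Alternatives covered scaling, filters, DESeq2, glmTreat, thresholds, the floor, a replicate block, summed transcripts and each library left out. Adgre1 and Trarg1 were matched by older symbols. The listed symbol Gk was not matched, and Gyk was listed under its own symbol.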

Additional observations from a re-analysis of the deposited data

How the results depend on the processing

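The calls of Adipoq, Ucp1, Pck1 and Plin1 were kept in every fit in which these genes were tested. In the main fit these 4 passed the filter only through their post-PNX libraries, and every fit drew on the same libraries. The kept calls thus describe the processing only. Of 100 values of the 8 tested genes under the other settings, 96 kept their direction and their call (fold and adjusted p together). The adjusted p alone passed 0.01 in some: for Cidec 0.0198 (DESeq2) and 0.0124 (without the first sham library), for Plin4 0.0108 (DESeq2), and 1 for Cidec, Plin4 and Lipe with glmTreat, which tests for more than the fold threshold. Those that turned were Cidea at 0.18 and Cidec at 0.0071 under scaling to endothelial markers, and Cidea at 0.33 (-0.36 without the first sham library) without the second sham library and 0.10 without the first post-PNX library. The endothelial scaling raises all genes alike, and for the libraries left out the cause was not tested. The adjusted p of Cidec over the settings ran from 0.00015 to 1. Where a mean of 50 counts was required, 1 of the 10 genes (Pck1) was called higher, since Adipoq, Ucp1 and Plin1 were no longer tested. With no threshold on fold change 2 were lower (Cidec and Lipe). Counts summed over transcripts, in which Retn has equal counts on both transcripts, added Retn. Leaving out each library gave 4 to 4 called higher and 0 to 0 lower.

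Of the other fat genes 8 were higher with the filter of 50 counts, and 35 higher and 33 lower with no fold threshold. Leaving out each library gave 12 to 14 higher and 2 to 4 lower. Over all genes the counts were 604 higher and 39 lower with glmTreat, 4745 and 4513 with no fold threshold, 102 lower under endothelial scaling, and 160 lower with the filter of 50 counts. Leaving out a library gave 893 to 928 higher and 225 to 268 lower. A fit with 1 library in a group assumes that it varies like the other group. With 0 counts allowed in sham, 44 genes were at the floor in place of 390.

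The replicate block (numbers that mark different mice, with a correlation of 0.024 between same-numbered libraries) left 4 genes called higher and Adipoq at 6.41. At this depth Lep and Retn could not be tested, and the folds of Adipoq and Ucp1 are set against the floor.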
